A study of Mus musculus with 72 samples.

Results

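The genes described here are 32 mouse genes of glycolysis and of the response to low oxygen, taken by name as a list of the pathways, with no measured value in the rule. The list was nevertheless chosen with earlier results of these data known. The count table holds 50600 genes, so the 32 are a small named set within it. They comprise the glucose transporter Slc2a1, 16 genes of glycolytic enzymes from hexokinase to lactate dehydrogenase, and 15 genes that respond to hypoxia or regulate the flow of glucose carbon. RNA was sequenced from 6 mouse melanoma cell lines under 4 treatments with 3 libraries each, 72 libraries in all. Cells were starved of serum for 18 h and then kept for 4 h in 0.5% serum with 0.1% DMSO (mock), 10 nM gastrin-releasing peptide (GRP), 1 µM RC-3095 (RC, an antagonist of the GRP receptor GRPR) or both (GRP+RC). All lines carry the melanocyte-driven oncogene Tyr::NRASQ61K/°. Lines 1057 and 1064 come from female mice that are also Cdkn2a-/-, Tyr::CreA/° and Cdh1dF/dF, so that the Cre driven by the tyrosinase promoter removes E-cadherin, and these lines express their own Grpr. Line 1181, from a male, is Cdkn2a-/- and Cdh1dF/dF without Cre, and line 1014, from a female, has the oncogene as its only listed allele. The paper describes 1181 as E-cadherin-positive. Its control version held 357 to 918 counts of Cdh1, the E-cadherin gene, where 1057 held 0 to 2 and 1064 held 0 to 3. Lines 1181 and 1014 were each studied in a version with CMV::Grpr/tGFP, named -Grpr, and a version with CMV::tGFP alone, named -Ctrl. The receptor of the -Grpr versions is therefore driven by a viral promoter, and each genotype is represented by 1 line, except that 1057 and 1064 share theirs. The labels do not say whether the 3 libraries of a group are separate cultures, so the p-values measure the spread between these libraries, which may be technical.

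Glycolysis splits glucose into pyruvate, which lactate dehydrogenase turns into lactate when it is not burnt in mitochondria. Several steps can be made by alternative isoenzymes of separate genes: hexokinase by Hk1 or Hk2, phosphofructokinase by Pfkl, Pfkm or Pfkp, and enolase by Eno1 or Eno2. When oxygen is short, the prolyl hydroxylases encoded by Egln1 and Egln3 no longer mark HIF-1α (Hif1a) for destruction, and the stabilised factor binds DNA at sites with the core letters RCGTG near many glycolytic genes. Growth factor and RAS signalling is also known to raise several of these genes, and the melanocytic master regulator MITF is known to raise Hif1a transcription.

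Library totals ran from 19512882 to 46862053 counts, and the 10 most abundant genes took 5.41% to 7.75% of a library. The melanocyte markers Mitf, Sox10, Tyr, Dct, Pmel and Mlana were present in all 6 lines, with Tyrp1 at a median of only 1.88 TPM in 1181-Ctrl (TPM, transcripts per unit of sequenced transcripts corrected for length, as the authors computed them). Summed fibroblast, endothelial and keratinocyte markers stayed at or below 14.8 TPM in every library. Summed immune markers reached 100.1 TPM in 1181-Ctrl, although 4 of the 5 (Ptprc, Cd3e, Adgre1 and Itgam) were below 1 TPM in every library, which leaves Cd68. Grpr counts were 5628 to 8926 in 1057, 9830 to 24040 in 1064, 2825 to 27942 in 1014-Grpr and 0 to 2 in 1181-Ctrl. A pair of libraries went against their labels. The library labelled 1014-Ctrl mock replicate 2 held 1165 Grpr counts and 1557 counts of the Y-linked Ddx3y, where the other 11 libraries labelled 1014-Ctrl held 0 to 1 and 0. The library labelled 1181-Grpr GRP+RC replicate 2 held 0 Grpr and 0 Ddx3y counts, where the other 11 held 216 to 2878 and 1001 to 1913. Those 11 libraries of 1181-Grpr also held 4616 to 8931 counts of Xist, against 1 to 20 in 1181-Ctrl, so the versions of line 1181 differed in more than the receptor. In Grpr, Cdh1 and Ddx3y each of the 2 libraries fell within the range of the other libraries of the other's label. Xist of the library labelled 1181-Grpr GRP+RC replicate 2 did so too, at 20865 against 15323 to 31669. The library labelled 1014-Ctrl mock replicate 2 held 4164, just below 4616. Whether the 2 were exchanged was not tested. Results that rest on the 2 libraries are given with and without them, except where stated. Because each library is RNA of a whole culture, fewer cells of a type and less RNA per cell cannot be told apart.

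Of the 32 genes, 29 passed the count rule (10 or more counts in at least 3 libraries of a line) in every line. P4ha2 was among them on only 4 libraries of 1014-Grpr and 3 of 1014-Ctrl, the library labelled 1014-Ctrl mock replicate 2 included. Egln3 passed in 1057, 1064 and 1181-Grpr, the lactate exporter Slc16a3 in 1057 and 1064, and the carbonic anhydrase Car9 in 1064 alone. Slc16a3 passed in 1057 on only 3 libraries, with a mock mean of 0.173 TPM there. The number tested was therefore 31 in 1057, 32 in 1064, 30 in 1181-Grpr and 29 in each of 1014-Grpr, 1181-Ctrl and 1014-Ctrl.

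The promoters of the 4 genes that passed the test with a change above 2-fold are shown so that the letters around their start sites can be compared, since HIF-1 sites are known for several genes of this pathway. They are the 250 bases before the RefSeq start site (GRCm38.p6, read on the coding strand), with each match to the core ACGTG or GCGTG, on either strand, in capitals. The windows lie at chr4:119108495-119108744 (Slc2a1, + strand), chr6:82774455-82774704 (Hk2, - strand), chr13:6648772-6649021 (Pfkp, - strand) and chr6:124769674-124769923 (Eno2, - strand).
Slc2a1: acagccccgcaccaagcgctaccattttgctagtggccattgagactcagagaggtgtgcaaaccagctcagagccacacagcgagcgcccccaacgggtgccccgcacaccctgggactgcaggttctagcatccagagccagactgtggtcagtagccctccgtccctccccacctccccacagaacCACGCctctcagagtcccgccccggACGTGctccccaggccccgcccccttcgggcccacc
Hk2: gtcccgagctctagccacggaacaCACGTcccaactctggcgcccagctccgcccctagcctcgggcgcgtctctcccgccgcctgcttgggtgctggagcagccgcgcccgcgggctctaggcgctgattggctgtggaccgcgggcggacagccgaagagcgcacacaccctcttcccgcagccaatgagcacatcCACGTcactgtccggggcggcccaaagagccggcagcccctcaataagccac
Pfkp: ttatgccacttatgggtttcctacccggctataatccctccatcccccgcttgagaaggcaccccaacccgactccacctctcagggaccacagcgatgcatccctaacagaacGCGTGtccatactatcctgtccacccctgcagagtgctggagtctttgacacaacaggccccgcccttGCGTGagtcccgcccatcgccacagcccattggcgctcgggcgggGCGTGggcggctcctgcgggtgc
Eno2: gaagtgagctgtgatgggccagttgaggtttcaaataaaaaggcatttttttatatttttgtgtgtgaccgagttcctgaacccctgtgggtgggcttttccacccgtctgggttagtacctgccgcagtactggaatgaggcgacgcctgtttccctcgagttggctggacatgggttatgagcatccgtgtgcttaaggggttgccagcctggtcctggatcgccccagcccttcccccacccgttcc
These upstream windows held 2 matches for Slc2a1, 2 for Hk2, 3 for Pfkp and 0 for Eno2. Over windows reaching from 250 bases before to 50 bases after the start, 28 of the 31 member genes found in the table (90.32%) held the core in at least 1 window, against 46.73% of all 27025 genes. Counted by window, the shares were 36 of 46 (78.26%) and 14380 of 32851 (43.77%). The sets were not matched for base composition or for the number of windows per gene. The list was also drawn up by name to hold genes of the low-oxygen response. The longer CACGTG, which contains the core and is also the E-box letters read by MITF and MYC, stood in 10.87% of the members' windows and 7.15% of all windows. A match is a description of letters, and the lack of one in Eno2 says only that the letters are not in this window.

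The first comparison asked what 4 h of GRP did to these genes in each line. Pfkp and Eno2 rose with GRP in each of the 3 lines in which any member passed (1057, 1064 and 1014-Grpr). Slc2a1 rose in 1057 and 1014-Grpr, Hk2 more than doubled its level in 1014-Grpr, and Hk1 fell in 1057 and 1014-Grpr. Changes are log2 fold changes with standard errors (SE) from edgeR's quasi-likelihood test, and a gene passed at a Benjamini-Hochberg adjusted p under 0.05 over all genes tested in its line. In 1057, 13 of 31 members rose and 9 fell, where 25.5% of all genes rose and 26.8% fell. In 1064, 2 of 32 rose and 0 fell, where 3.75% of all genes rose and 2.6% fell. In 1014-Grpr, 8 of 29 rose and 3 fell, against 15.8% and 12.8% of all genes. In these fits, made without a replicate block, the share of members passing was thus above that of all genes for rises in 1057 and 1014-Grpr. Otherwise it was close to that share or below it, with only 2 members behind the share in 1064. The list was chosen with earlier results of these data known, so the shares are a description. With a change of more than 2-fold also required, 2 members rose in 1057 (4.95% of all genes rose and 1.52% fell), 1 in 1064 (1.55% and 0.764%) and 3 in 1014-Grpr (3.15% and 0.867%), and 0 fell in each. In 1 fit of all 72 libraries, the 2 that go against their labels included, the number passing was 4 in 1057, 3 in 1064 and 4 in 1014-Grpr. Shares of all genes are not given for this fit or for fits that leave out a replicate. Those counts therefore do not compare the members with other genes.

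The same-numbered libraries of 1064 and of 1014-Grpr deviated together, so the fit with the replicate number as a block is given beside results that it changes. With the block, 13 members rose and 4 fell in 1064 (21.2% and 22% of all genes), and 10 rose and 10 fell in 1014-Grpr (26.7% and 26.4%). The share of members was then above that of all genes for rises in both lines and for falls in 1014-Grpr, and below it for falls in 1064. In 1064 the count without the block was 0 when replicate 1 or replicate 2 was left out and 4 without replicate 3, and in 1014-Grpr it was 5 without replicate 1 and 7 without replicate 2. The median change of the members was 0.08 in 1057, 0.17 in 1064 and 0.03 in 1014-Grpr on the log2 scale, where the median of all genes was -0.01, -0.01 and -0.02. In size, regardless of direction, the median member moved by 0.18, 0.22 and 0.24, and the median gene by 0.22, 0.24 and 0.23.

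Slc2a1 encodes GLUT1, the transporter that brings glucose into most cultured cells. In 1057 its level in mock replicates 1 to 3 was 46.1, 41.9 and 38.3 CPM (counts scaled to library size by edgeR's TMM method), and with GRP it was 75.0, 70.8 and 72.9 CPM. In 1014-Grpr it went from 50.4, 36.6 and 52.2 CPM to 105, 94.7 and 133 CPM. In 1064 mock libraries it was 81.5, 69.1 and 168 CPM, and GRP libraries held 169.9, 217 and 223 CPM. The GRP libraries stood above the mock libraries without overlap in these lines, in 1064 by a narrow margin because mock replicate 3 was high. The log2 fold change was 0.79 ± 0.06 (adjusted p = 1.8e-09) in 1057 and 1.26 ± 0.19 (adjusted p = 0.00051) in 1014-Grpr. In 1064 it was 0.94 ± 0.33 (adjusted p = 0.12), and with the block 1.01 (adjusted p = 0.00094).

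Hexokinase traps glucose in the cell as glucose 6-phosphate, with Hk1 the widespread form and Hk2 the form known to be induced by growth factors and in tumours. Hk2 in 1014-Grpr rose from 33.1, 23.3 and 38.1 CPM in mock to 75.6, 68.2 and 88.3 CPM with GRP, a log2 fold change of 1.30 ± 0.19 (adjusted p = 0.00034). In 1057 the change in Hk2 was small, from 96.2, 93.4 and 87.9 CPM to 105, 104 and 105 CPM (0.18 ± 0.05, adjusted p = 0.0034). The 1064 libraries overlapped, with 65.5, 53.6 and 163 CPM in mock and 96.8, 108 and 156 CPM with GRP, and replicate 3 was the one that did not go up. The 1064 change in Hk2 was 0.36 ± 0.47 (adjusted p = 0.73), or 0.49 (adjusted p = 0.018) with the block. Hk1 went the other way. It was 512, 507 and 487 CPM in 1057 mock libraries and 353, 358 and 360.2 CPM with GRP, a log2 fold change of -0.49 ± 0.03 (adjusted p = 1.1e-10). In 1014-Grpr it fell from 757, 733 and 690.3 CPM to 663, 629.9 and 604 CPM (-0.20 ± 0.06, adjusted p = 0.024), a call lost without replicate 1 or without replicate 2 (adjusted p up to 0.165). In 1064 Hk1 was 389, 511 and 321 CPM in mock and 323, 364 and 267 CPM with GRP, lower in each same-numbered pair although the groups overlapped (-0.36 ± 0.20, adjusted p = 0.35, and adjusted p = 0.00072 with the block).

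Phosphofructokinase commits sugar to glycolysis, and its platelet-type, liver-type and muscle-type subunits come from Pfkp, Pfkl and Pfkm. Pfkp passed in all 3 lines. In 1057 it doubled, from 102, 96.9 and 103 CPM to 213, 199 and 202 CPM (1.02 ± 0.04, adjusted p = 1e-13). In 1064 it rose from 20.4, 22.2 and 31.8 CPM to 51.4, 65.7 and 46.4 CPM (1.13 ± 0.17, adjusted p = 0.0072). In 1014-Grpr it rose from 121, 108 and 95.8 CPM to 159.5, 158 and 168 CPM (0.58 ± 0.09, adjusted p = 0.00048). No GRP library of these lines overlapped its mock libraries. Pfkm was lower, from 50.7, 48.3 and 47.4 CPM to 37.5, 39.2 and 39.5 CPM in 1057 (-0.33 ± 0.04, adjusted p = 1.8e-06). For Pfkm the 1064 value was -0.39 ± 0.13 (adjusted p = 0.098, 0.0032 with the block), and the 1014-Grpr value was -0.41 ± 0.18 (adjusted p = 0.12, 1.8e-07 with the block). Pfkl fell in 1057 by 0.21 on the log2 scale (SE 0.05, adjusted p = 0.00094). Exons of Pfkm overlap those of Senp1 on the same strand over 10.2% of their length, so reads there could be counted for either gene.

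Enolase makes phosphoenolpyruvate, with Eno1 the widespread form and Eno2 the form typical of neurons and neuroendocrine cells. Eno2 had the largest change of the 32 genes in 1057, from 4.29, 3.41 and 3.33 CPM to 15.6, 14.2 and 13.9 CPM (1.98 ± 0.09, adjusted p = 1e-12). In 1064 it rose from 37.3, 41.1 and 54.7 CPM to 73.6, 88.3 and 69.8 CPM (0.80 ± 0.15, adjusted p = 0.015). In 1014-Grpr it rose from 21.5, 23.2 and 17.4 CPM to 45.5, 58.1 and 46.7 CPM (1.27 ± 0.15, adjusted p = 7.2e-05). The GRP and mock libraries did not overlap in any of these lines. In 1064, Pfkp and Eno2 did not pass when replicate 1 or replicate 2 was left out, with adjusted p up to 0.178 for Pfkp and 0.204 for Eno2.

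**Figure D1:**
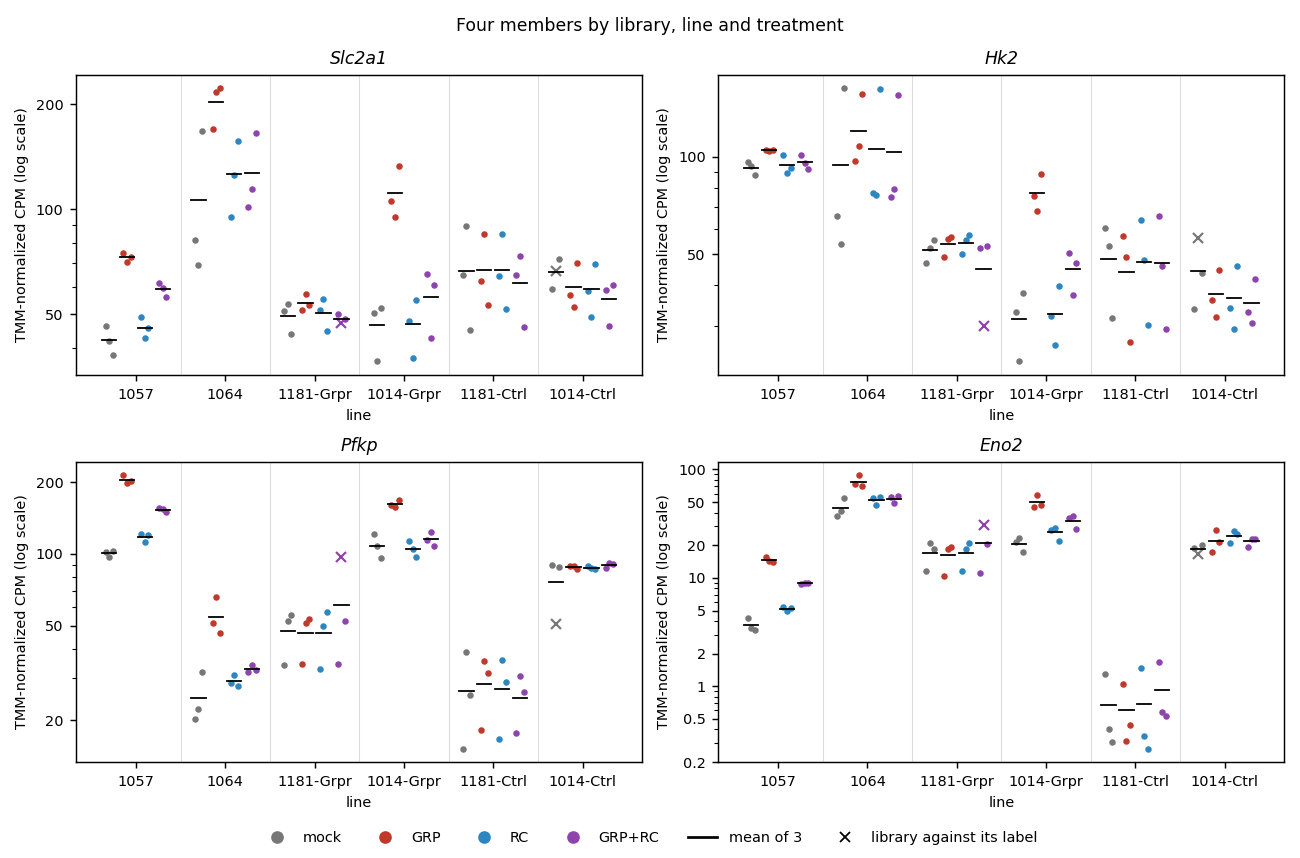
Slc2a1, Hk2, Pfkp and Eno2 in each library (point), by line and treatment, in TMM-normalized CPM on a log axis, with the mean of 3 as a bar and the 2 libraries that go against their labels as crosses. In 1057 and 1014-Grpr the GRP libraries lie above all mock libraries for each of the 4 genes.

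The 9 core enzymes of the middle and lower pathway (Gpi1, Aldoa, Tpi1, Gapdh, Pgk1, Pgam1, Eno1, Pkm and Ldha) changed less than Eno2 and Pfkp. In 1057, 5 of the 9 rose and 0 fell, against 25.5% and 26.8% of all genes, and their log2 fold changes ran from -0.09 for Gpi1 to 0.24 for Gapdh. In 1064 they ran from -0.01 for Eno1 to 0.25 for Aldoa, and in 1014-Grpr from -0.26 for Eno1 to 0.11 for Aldoa, and 0 of 9 passed in either line by edgeR or DESeq2 (unadjusted p under 0.05 for 0). With the block 5 rose in 1064 (21.2% of all genes), and 1 rose and 2 fell in 1014-Grpr (26.7% and 26.4%). Ldha, which makes lactate, rose by 0.16 ± 0.05 in 1057 (adjusted p = 0.0059). Several of these genes have near copies: of the 100-base windows of Gapdh transcripts 78.05% are also found in other annotated genes, and the share is 67.03% for Pgk1, 59.02% for Eno1 and 39.74% for Pgam1, so their counts depend on how such reads were assigned. The share is 0 for Slc2a1, Hk1, Hk2, Pfkp, Pfkm and Eno2.

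**Figure D2:**
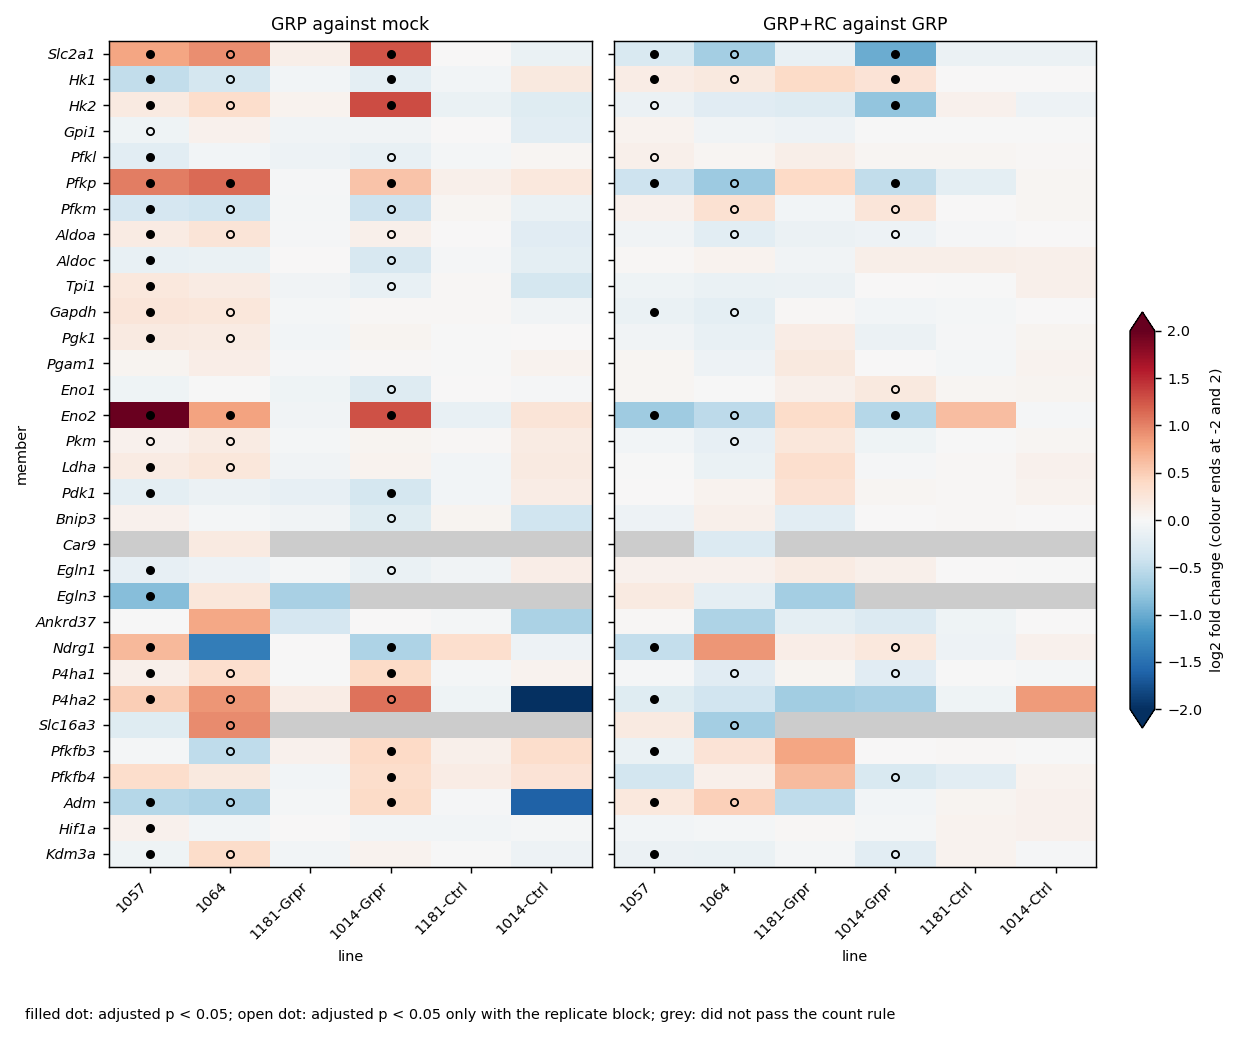
Log2 fold change of the 32 genes (rows) in the 6 lines (columns) for GRP against mock and GRP+RC against GRP, with red higher and blue lower. Filled dots passed at adjusted p under 0.05, open dots passed only with the replicate block, and grey genes were not tested. For GRP against mock, P4ha2 and Adm in 1014-Ctrl are dark blue, and there the library labelled mock replicate 2 stood far above the other mock libraries.

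Levels per transcript length, in the authors' TPM, show the mix of isoenzymes beside their sum. The TPM were used as deposited, without TMM scaling, so changes of a sum are not on the scale of the edgeR changes. They are given as a description, since 3 against 3 libraries cannot go below an exact permutation p of 0.10. In 1057 Hk2 made up 20.8% ± 0.33 (SD, n = 3) of the summed Hk1 and Hk2 TPM in mock and 29.5% ± 0.32 with GRP, while the sum went from 249.6 ± 4.75 to 189.7 ± 1.48 TPM. In 1014-Grpr the Hk2 share went from 5.84% ± 1.48 to 14.9% ± 2.08, and the sum from 324.5 ± 7.34 to 291 ± 11.6 TPM. The Pfkp share of the 3 phosphofructokinase genes went from 14.1% ± 0.63 to 28.3% ± 0.57 in 1057. It went from 4.67% ± 1.58 to 10.6% ± 2.69 in 1064 and from 15.1% ± 2.20 to 23.9% ± 2.30 in 1014-Grpr. Eno2 stayed a minor enolase, at 0.149% ± 0.012 of Eno1 and Eno2 in mock and 0.626% ± 0.042 with GRP in 1057. Its share was 3.62% ± 1.08 and 6.09% ± 0.41 in 1064, and 1.93% ± 0.10 and 5.41% ± 0.73 in 1014-Grpr. The summed TPM of all 16 enzymes was 9532 ± 456 in mock and 9654 ± 104 with GRP in 1057, a change of 1.27% of the mock mean. It changed by 1.96% in 1064 and by -7.36% in 1014-Grpr. By edgeR, with TMM scaling, the median log2 change of the 9 core enzymes was 0.16 in 1057, 0.17 in 1064 and 0.03 in 1014-Grpr.

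**Figure D3:**
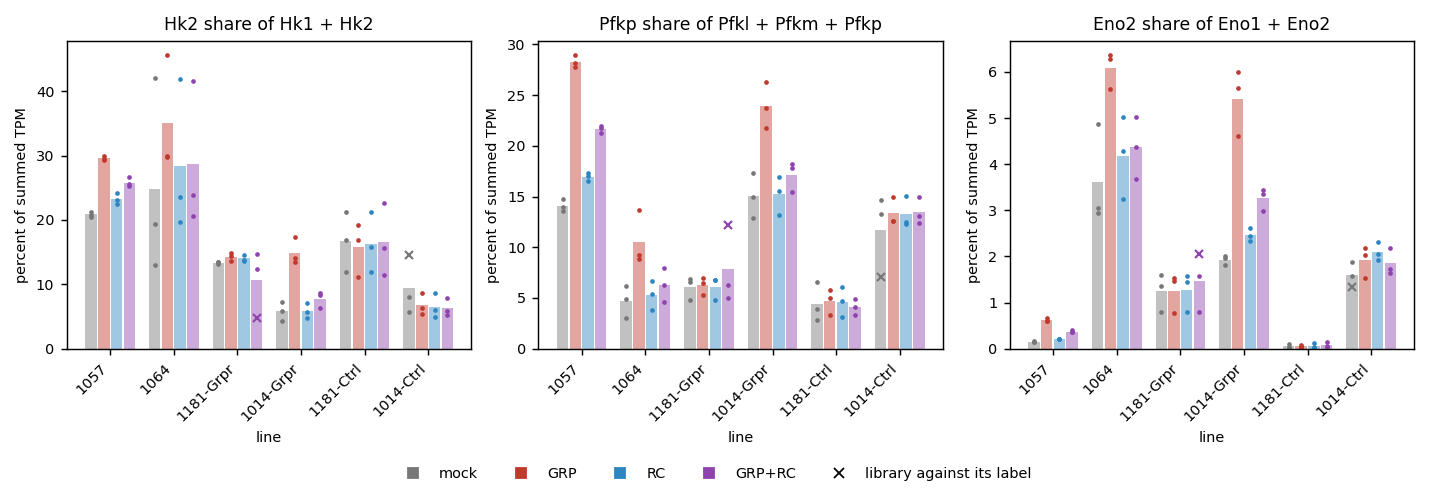
Share of Hk2, Pfkp and Eno2 in the summed TPM of their isoenzymes (percent), by line and treatment; bars are means of 3 libraries, points are libraries and crosses the libraries that go against their labels. In 1057 and 1014-Grpr the shares with GRP lie above every mock library.

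Among the 15 hypoxia-response and regulatory genes, some rose and others fell with GRP. Of the 14 tested in 1057, 4 rose and 5 fell (25.5% and 26.8% of all genes), of the 12 tested in 1014-Grpr, 4 rose and 2 fell (15.8% and 12.8%), and of the 15 tested in 1064, 0 passed by edgeR. In 1064, 3 had an unadjusted p under 0.05, DESeq2 passed 1 (Slc16a3), and with the block 4 rose and 2 fell (21.2% and 22% of all genes). Adm encodes adrenomedullin, a vasodilator peptide induced by hypoxia. It fell in 1057 from 158, 150.0 and 142 CPM to 104, 101 and 100.2 CPM (-0.56 ± 0.04, adjusted p = 1.5e-09). In 1064 its libraries overlapped, at 70.3, 139 and 111 CPM in mock and 35.1, 91.2 and 83.3 CPM with GRP (-0.61 ± 0.38, adjusted p = 0.40, and 0.00068 with the block). In 1014-Grpr Adm rose from 20.5, 18.4 and 21.8 CPM to 28.5, 21.9 and 28.4 CPM (0.38 ± 0.13, adjusted p = 0.041), so it went up there and down in 1057. That rise was lost without replicate 1 or without replicate 3 (adjusted p up to 0.218). Egln3, the HIF prolyl hydroxylase that is itself a HIF target, fell in 1057 from 11.01, 10.6 and 9.83 CPM to 5.05, 6.04 and 6.27 CPM (-0.85 ± 0.08, adjusted p = 1.1e-07), without overlap. In 1064 Egln3 was low, at 0.551, 0.377 and 0.847 CPM in mock and 0.610, 0.601 and 0.883 CPM with GRP, and these overlapped (0.22 ± 0.42, adjusted p = 0.82). Hif1a itself changed by 0.08 ± 0.03 in 1057 (adjusted p = 0.025).

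The hypoxia and regulatory genes that follow were named after their values were seen. Ndrg1, a gene induced by stress and low oxygen, rose in 1057 from 3.30, 2.61 and 3.22 CPM to 5.27, 4.80 and 4.26 CPM (0.65 ± 0.14, adjusted p = 0.00095). In 1014-Grpr it fell from 24.1, 23.8 and 28.5 CPM to 17.1, 16.7 and 15.7 CPM (-0.62 ± 0.11, adjusted p = 0.0010). In 1064 Ndrg1 was 6.61, 0.754 and 1.18 CPM in mock and 1.37, 0.786 and 1.10 CPM with GRP, with mock replicate 1 far above the rest (-1.39 ± 1.06, adjusted p = 0.51, and 0.051 with the block). P4ha2, a collagen prolyl hydroxylase, rose in 1057 by 0.49 ± 0.07 (adjusted p = 1.2e-05), and was higher by 0.89 ± 0.32 in 1064 (adjusted p = 0.13, 0.0041 with the block) and by 1.09 ± 0.41 in 1014-Grpr (adjusted p = 0.064, 0.036 with the block). The 1014-Grpr value is near the floor, with a mock mean of 0.107 TPM and 10 or more counts in only 4 libraries. Pdk1, the kinase that closes the gate from pyruvate to the mitochondria, fell by 0.20 ± 0.05 in 1057 (adjusted p = 0.0053) and by 0.36 ± 0.11 in 1014-Grpr (adjusted p = 0.033). Pfkfb3, which makes the phosphofructokinase activator fructose 2,6-bisphosphate, rose by 0.40 ± 0.12 in 1014-Grpr (adjusted p = 0.025). Summed over the 15 genes, TPM changed by -15.8% with GRP in 1057, by -14.2% in 1064 and by 0.41% in 1014-Grpr. These sums are without TMM scaling too, so they are not on the scale of the edgeR changes. Adm made up 312 ± 11.3 of the 859.9 ± 14.8 TPM of that sum in 1057 mock libraries (SD, n = 3).

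A further 92 genes of the same pathways, not members, were looked at for context, of which 91 were found in the table. In 1057, 29 of 74 tested rose and 25 fell, where 25.5% and 26.8% of all genes did. In 1014-Grpr 18 of 72 rose and 12 fell (15.8% and 12.8%), and in 1064 5 of 75 rose and 0 fell (3.75% and 2.6%). With the block 22 rose and 18 fell in 1064 (21.2% and 22%). Nfil3, a transcriptional repressor induced by several signals, rose in all 3 lines, by 2.36 ± 0.05 in 1057, 2.32 ± 0.33 in 1064 (adjusted p = 0.0055) and 2.04 ± 0.22 in 1014-Grpr. Pgf, the placental growth factor, rose by 3.83 ± 0.09 in 1057 and 1.58 ± 0.31 in 1014-Grpr, and was higher by 2.26 ± 0.60 in 1064 (adjusted p = 0.051, 0.00060 with the block).

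In 1181-Grpr, which carries the receptor transgene, and in the receptor-free lines 1181-Ctrl and 1014-Ctrl, 0 members passed with GRP by edgeR, and 0 by DESeq2. Unadjusted p was under 0.05 for 0 of 30, 0 of 29 and 2 of 29 members in these lines, and 0% of all genes passed in each. The 2 were Adm and P4ha2, which stood at 149 and 4.22 CPM in the library labelled 1014-Ctrl mock replicate 2 and at 15.0 to 22.6 CPM and 0.0394 to 0.31 CPM in the other mock libraries. Without the library labelled 1014-Ctrl mock replicate 2 the count in 1014-Ctrl was 0 of 28 at unadjusted p under 0.05. In 1181-Grpr, without the library that goes against its label and with the block, 1 of 30 members (Pfkl) passed, and it fell by 0.11 on the log2 scale (adjusted p = 0.039), where 0.39% of all genes rose and 0.0411% fell. Slc2a1 in 1181-Grpr was 51.0, 53.6 and 44.0 CPM in mock and 51.3, 57.3 and 53.2 CPM with GRP, and these overlap. Pfkp was 34.2, 52.4 and 55.5 CPM and 34.4, 51.5 and 53.4 CPM. Grpr counts in 1181-Grpr ran from 216 to 2878, as given above, and the part of the receptor level in this result was not tested.

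Whether the receptor changed the GRP effect was tested directly as the difference between the -Grpr and -Ctrl versions of a line. In line 1014, 4 of 29 members passed and were higher in the -Grpr version, where 9.26% of all genes were higher and 4.18% lower. Slc2a1 in 1014-Ctrl was 59.2, 66.5 and 71.98 CPM in mock and 56.9, 52.6 and 70.2 CPM with GRP, and Hk2 was 33.8, 55.9 and 43.8 CPM and 36.1, 32.02 and 44.8 CPM, and the groups overlapped for both. The difference in log2 fold change was 1.41 ± 0.26 for Slc2a1 (adjusted p = 0.0013), 1.55 ± 0.30 for Hk2 (adjusted p = 0.0018) and 1.02 ± 0.24 for Eno2 (adjusted p = 0.0063). The fourth, P4ha2, had a difference of 4.53 ± 1.36 (adjusted p = 0.031), but the library labelled 1014-Ctrl mock replicate 2 held 4.22 CPM of it against 0.0394 and 0.31 CPM in the other mock libraries. Without that library the P4ha2 difference was 1.48 ± 0.89 (adjusted p = 0.28). Slc2a1, Hk2 and Eno2 then had differences of 1.41, 1.36 and 1.09 with adjusted p of 0.0014, 0.0031 and 0.0038, and Pfkp passed at 0.61 ± 0.11 (adjusted p = 0.00045, against 0.38 and 0.21 with the library), where 10.8% of all genes were higher and 6% lower. The following fits hold that library again. Leaving out replicate 1 of both versions took the count to 0, and leaving out replicate 3 took it to 2. With the block 6 were higher and 3 lower, where 15.2% and 11.1% of all genes were. This difference was not fitted with the block and without that library. In line 1181, 0 of 30 members differed by edgeR or DESeq2 (unadjusted p under 0.05 for 1), and 0% of all genes did.

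The next comparison asked how much of the GRP change was undone when the antagonist was added with the peptide. GRP against mock and GRP+RC against GRP share the GRP libraries, so their values are set side by side and not correlated. In 1057, 2 of 31 members rose and 8 fell in GRP+RC against GRP, where 10.9% of all genes rose and 13.6% fell. In 1014-Grpr, 1 of 29 rose and 4 fell (3.87% and 7.73% of all genes), and with the block 4 rose and 8 fell (17.3% and 21%). In 1064, 0 of 32 passed by edgeR, where 4 had an unadjusted p under 0.05, 0.0288% of all genes passed, and DESeq2 passed 1. With the block 3 rose and 8 fell there (9.86% and 11.2% of all genes). The count in 1014-Grpr was 1 without replicate 1, 2 without replicate 2 and 3 without replicate 3, and in 1057 it was 5 without replicate 3. In 1181-Grpr, 1181-Ctrl and 1014-Ctrl 0 members passed by edgeR or DESeq2, with or without the 2 libraries, 0 had an unadjusted p under 0.05, and 0% of all genes passed.

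Slc2a1 in 1057 fell from its GRP level to 61.5, 59.2 and 55.9 CPM with GRP+RC, a log2 change of -0.31 ± 0.06 (adjusted p = 0.00054) beside 0.79 for GRP against mock. In 1014-Grpr it returned to 65.2, 42.8 and 60.6 CPM, overlapping its mock libraries (-0.99 ± 0.19, adjusted p = 0.0061, beside 1.26). Pfkp in 1057 went to 155, 155 and 149 CPM (-0.42 ± 0.04, adjusted p = 1.4e-07, beside 1.02). For Slc2a1 and Pfkp in 1057 all 3 GRP+RC libraries lay between the mock and the GRP libraries. Eno2 in 1057 went to 8.73, 8.89 and 9.03 CPM (-0.71 ± 0.08, adjusted p = 1.4e-06, beside 1.98), and in 1014-Grpr to 35.5, 37.3 and 28.1 CPM (-0.57 ± 0.15, adjusted p = 0.025, beside 1.27). Hk2 in 1014-Grpr went to 50.5, 37.3 and 46.9 CPM (-0.79 ± 0.19, adjusted p = 0.018, beside 1.30). Hk1 moved back up, by 0.15 ± 0.03 in 1057 (adjusted p = 0.0010) and by 0.27 ± 0.06 in 1014-Grpr (adjusted p = 0.011), to 767, 788 and 738 CPM there. Pfkp in 1064 went to 32.05, 34.04 and 32.5 CPM, below its GRP libraries. In 1064 the log2 changes were -0.68 for Slc2a1, -0.73 for Pfkp and -0.52 for Eno2, with adjusted p of 0.54, 0.18 and 0.27, and of 0.015, 0.0082 and 0.017 with the block.

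The antagonist alone was compared with mock to see its own effect. In 1057, 2 of 31 members rose and 7 fell with RC, where 12.9% of all genes rose and 11.2% fell, and the count was 4 without replicate 2 and 5 without replicate 3. Eno2 rose by 0.49 ± 0.10 (adjusted p = 0.0014), to 5.34, 4.98 and 5.23 CPM, and Pfkp by 0.22 ± 0.04 (adjusted p = 0.00030), to 121, 112 and 120.0 CPM. Hk1 fell by 0.18 ± 0.03 (adjusted p = 0.00024) and Egln3 by 0.29 ± 0.08 (adjusted p = 0.012). All 4 moved the same way as with GRP in 1057, by less. The comparisons share the mock libraries. In the other 5 lines 0 members passed by edgeR or DESeq2 and 0% of all genes did. Unadjusted p was under 0.05 for 1 member in 1014-Grpr and 2 in 1014-Ctrl, and for 0 in 1064, 1181-Grpr and 1181-Ctrl. Without the library labelled 1014-Ctrl mock replicate 2 the number in 1014-Ctrl was 0. With the block 1 member of 1014-Grpr, Pfkfb3, passed at 0.25 (adjusted p = 0.028), where 0.0358% of all genes rose and 0.00717% fell.

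GRP+RC against mock shows what remained. In 1057, 6 of 31 members were higher and 7 lower, where 21.2% and 22.8% of all genes were. Eno2 remained 1.27 ± 0.09 above mock (adjusted p = 2.6e-09), Pfkp 0.61 ± 0.04 and Slc2a1 0.48 ± 0.06. Egln3, Adm and Hk1 remained lower than in mock, with log2 fold changes of -0.67, -0.35 and -0.34. In 1014-Grpr 0 of 29 passed by edgeR, 7 had an unadjusted p under 0.05 and DESeq2 passed 3, where 0.767% of all genes were higher and 0.186% lower. With the block 6 were higher and 6 lower (10.1% and 7.09% of all genes), including Eno2 at 0.70 (adjusted p = 1.8e-06) and Slc2a1 at 0.27 (adjusted p = 0.0093). In 1064 and the other 3 lines 0 passed by edgeR or DESeq2, where 0% of all genes did, with 1 member each at an unadjusted p under 0.05 in 1064, 1181-Grpr and 1014-Ctrl and 0 in 1181-Ctrl. Without the 2 libraries the numbers in 1181-Grpr and 1014-Ctrl were 0.

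The size of the GRP response was compared between 1057, 1064 and 1014-Grpr. These tests were chosen after the values were seen. Between 1057 and 1014-Grpr, 7 of 31 members differed, where 15.1% of all genes did, and 13 with the block (28.1%). Ndrg1 differed by 1.25 ± 0.19 (adjusted p = 4.3e-05) and Adm by -0.96 ± 0.13 (adjusted p = 1.6e-05), each with opposite signs in the lines. Hk2 rose less in 1057, by a difference of -1.14 ± 0.20 (adjusted p = 0.00024), and Pfkp and Eno2 rose more, by 0.43 ± 0.10 and 0.70 ± 0.19. Between 1057 and 1064 only Eno2 of 32 differed (1.19 ± 0.18, adjusted p = 0.0017), where 1.3% of all genes did, and with the block 5 differed (16.5%). Between 1064 and 1014-Grpr 0 of 32 differed by edgeR or DESeq2, with an unadjusted p under 0.05 for 3 and 0.226% of all genes passing, and 9 differed with the block, where 14.1% of all genes did.

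Resting levels were compared over the mock libraries of all lines. The mean mock level in TPM differed 1.55-fold between the lowest and the highest line for Aldoa and 65.6-fold for Eno2, and neither extreme was 1014-Ctrl. Egln3 and Slc16a3 were listed at 0 in 1181-Ctrl, so no fold is given for them. Eno2 was 0.98, 0.29 and 0.22 TPM in 1181-Ctrl, 3.0, 2.45 and 2.41 TPM in 1057 and 29.0, 30.3 and 38.4 TPM in 1064. These 3 groups did not overlap. Between 1057 and 1064, 8 of 32 members were higher in 1057 and 7 lower, and 49.2% of all genes differed in either direction, a share close to the members' (55.5% without the library labelled 1014-Ctrl mock replicate 2). Egln3 was 4.09 ± 0.52 higher in 1057 on the log2 scale (adjusted p = 3.4e-05) and Pfkp 1.995 ± 0.31 (adjusted p = 9.7e-05), while the differences were -3.61 ± 0.35 for Eno2 and -1.36 ± 0.29 for Slc2a1 (adjusted p = 0.0013).

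**Figure D4:**
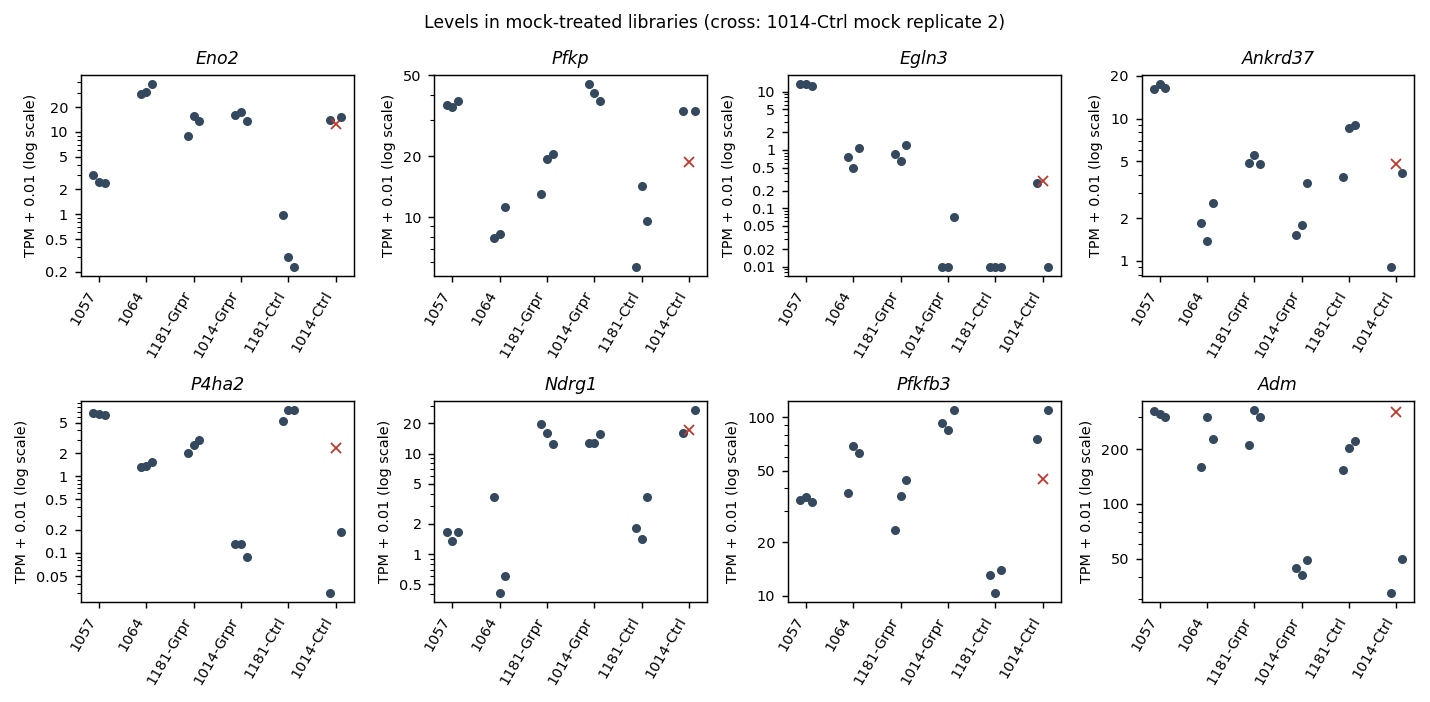
Mock levels of 8 members in the 6 lines (TPM + 0.01, log axis), with 1 point for each library and a cross for the library labelled 1014-Ctrl mock replicate 2. Eno2 is lowest in 1181-Ctrl and highest in 1064, and the cross stands far from the other 1014-Ctrl libraries for P4ha2 and Adm.

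Between 1181-Ctrl and 1014-Ctrl, 1 of 32 was higher and 14 lower (34.2% of all genes differed), and without the library labelled 1014-Ctrl mock replicate 2, 6 were higher and 16 lower (49.9%). The difference was -4.88 ± 0.40 for Eno2 and -2.72 ± 0.32 for Pfkfb3. With that library kept, the number passing was 7 without replicate 1 and 6 without replicate 3. Between the versions of line 1181, 7 were higher in 1181-Grpr and 0 lower (9.66% of all genes differed), and without the same library 11 were higher and 1 lower (16.5%). Without replicate 3, and with that library kept, the number passing was 4. Eno2 was 8.83, 15.4 and 13.6 TPM in 1181-Grpr, a log2 difference of 4.73 ± 0.40 from 1181-Ctrl, and Pdk1 was 1.10 ± 0.25 higher (adjusted p = 0.0087). Egln3 was listed at 0 TPM in all 3 mock libraries of 1181-Ctrl and at 0.85, 0.64 and 1.22 TPM in 1181-Grpr. These versions also differed in Xist, as given above, and in Dct, at a median of 9316 against 408.8 TPM, and the part of these in the differences was not tested. Between the versions of line 1014, 0 of 32 members passed by edgeR or DESeq2 (unadjusted p under 0.05 for 4), where 0.0836% of all genes did. This fit holds the library labelled 1014-Ctrl mock replicate 2, and the share of all genes without it is not given. The low share therefore cannot show that the versions were alike at rest. The member count was also 0 when each replicate was left out.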

How the data were processed

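Per the labels, polyA RNA was made into stranded libraries and sequenced as paired 100-base reads. Reads were checked with FastQC 0.11.5 and aligned by STAR (GRCm38.p5, GENCODE release 13), and the authors deposited gene counts and TPM values. The handling of strand and of reads with several matches is not given in the sources used here. The counts were analysed as deposited, per line (12 libraries), with edgeR 4.0.16 (TMM, quasi-likelihood test) in R 4.3.3, for genes with at least 10 counts in 3 libraries, with Benjamini-Hochberg adjustment over all genes. DESeq2 1.42.0, limma 3.58.1 on log2 TPM, other filters and a replicate block were alternatives, and the steps were tested on simulated data. The replicate numbers come from the sample titles. Same-numbered libraries of 1064, 1014-Grpr and 1181-Ctrl had mean correlations of their deviations of 0.907, 0.751 and 0.967, every pair above 0.1, and so did 1181-Grpr and 1014-Ctrl without the 2 libraries that go against their labels (0.856 and 0.693). In 1057 the mean was 0.052. Members and gene lists were chosen with earlier results of these data known. Members were given with all values where they passed at more than 2-fold in any contrast and line, filled up to 8 by the smallest p with GRP. Promoters are from RefSeq, and gene positions and transcript sequences from GENCODE release 21. A gene of the wider list is not reported here.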

Additional observations from a re-analysis of the deposited data

Results flagged for a closer look

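In each of the following the GRP effect differed between a pair of lines by a test of the difference itself. Between 1014-Grpr and 1014-Ctrl the log2 difference was 1.41 for Slc2a1, 1.55 for Hk2, 1.02 for Eno2 and 4.53 for P4ha2, and the last rests on the library labelled 1014-Ctrl mock replicate 2, without which it was 1.48. Between 1057 and 1014-Grpr, a comparison chosen after the values were seen, the difference was 1.25 for Ndrg1 and -0.96 for Adm. Groups of 3 libraries were not searched for single libraries that stand apart.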

How the results depend on the processing

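Counts below are members passed, with the count as reported first. They stand without the shares of all genes, so they show how the calls move and do not compare members with other genes. No paired fit changed the direction of a named change, and DESeq2, RLE scaling, filterByExpr and limma on TPM left most counts within 1.5 times. Requiring also a change above 2-fold took GRP against mock from 22 to 2 in 1057, 2 to 1 in 1064 and 11 to 3 in 1014-Grpr, GRP+RC against GRP from 10 to 0 in 1057 and 5 to 0 in 1014-Grpr, and in 1057 GRP+RC against mock from 13 to 1 and RC from 9 to 0. One fit of all 72 libraries gave 4, 4 and 2 for GRP against mock in 1057, 1014-Grpr and 1014-Ctrl, 0 and 1 for GRP+RC against GRP in 1057 and 1014-Grpr, 1 for GRP+RC against mock in 1057 and in 1014-Ctrl, and 0 and 1 for RC in 1057 and 1014-Ctrl. The replicate block gave 17 and 20 for GRP against mock in 1064 and 1014-Grpr, 11 and 12 for GRP+RC against GRP there, 12 for GRP+RC against mock and 1 for RC in 1014-Grpr, and 9 for the difference between the 1014 versions. DESeq2 gave 5 and 1 in 1064 for GRP against mock and GRP+RC against GRP, and 3 for GRP+RC against mock in 1014-Grpr, where no filter gave 4. Without the 2 libraries the count between the 1181 versions at rest was 12, and with the block GRP against mock in 1181-Grpr gave 1. Leaving out each replicate gave 15 to 20 in 1057, 0 to 4 in 1064 and 5 to 10 in 1014-Grpr for GRP against mock, 5 to 9 and 1 to 3 for GRP+RC against GRP in 1057 and 1014-Grpr, 11 to 19 and 4 to 9 for GRP+RC and RC against mock in 1057, 0 to 4 for the difference in 1014, and 12 to 15, 6 to 15 and 4 to 8 for 1057 against 1064, 1181-Ctrl against 1014-Ctrl and the 1181 versions at rest. Pfkm in 1181-Grpr had a log2 change of -0.04, which ran from -0.087 to 0.0055 when each replicate was left out. Differences between responding lines, added later, gave 13, 5 and 9 with the block for 1057 against 1014-Grpr, 1057 against 1064 and 1064 against 1014-Grpr. The cause of these shifts was not tested. Members at a few counts, such as Car9 in 5 lines, could not be tested, and a difference there was not detectable at this depth.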

Other observations

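In 1064 21 of 32 members had a replicate SD of log2 CPM above that of the median gene and 6 stood above the 90th percentile. In 1057 the numbers were 13 of 31 and 1. They were 24 of 29 and 11 in 1014-Ctrl, and 22 of 29 and 6 in 1014-Grpr. In 1181-Grpr they were 19 of 30 and 5, and in 1181-Ctrl 18 of 29 and 4, so a high spread was not particular to 1064. These spreads leave out the 2 libraries that go against their labels. In 1064 the replicate SD was 0.92 for Ndrg1, 0.69 for Pdk1 and 0.68 for Bnip3, where the median gene had 0.197.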
